A study of Homo sapiens with 6 samples.

Results

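Cells carrying the G302V mutant of DDX3X were set against cells carrying wild-type DDX3X (WT), to see which transcripts differ between the 2 plasmids. The comparison holds 2 of the 6 RNA-seq libraries of the series, GFP-DDX3X G302V and GFP-DDX3X WT, taken by their sample labels, with 1 library each. All 6 libraries came from HEK293T cells, a human embryonic kidney line that expresses the simian virus 40 large T antigen. For 4 of them cells were transfected with 5 µg of plasmid, which coded for GFP, GFP-DDX3X WT, GFP-DDX3X T275M or GFP-DDX3X G302V, and after 32 h the GFP-positive cells were collected by flow cytometry. For the remaining 2 the cells were treated for 48 h with control siRNA or DDX3X siRNA, and no sort is described. The study's text names another mutant beside G302V for its RNA-seq than the label T275M does, so the identity of that library rests on its label. The transfections were transient, the cells kept their own DDX3X gene, and the promoter of the plasmids is not given in the sources used here. With 1 library per group no difference below has a replicate check, so no p-value is given, and a difference between libraries cannot be told apart from a difference between transfections or sorts.

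DDX3X is a DEAD-box RNA helicase, an enzyme that uses ATP to open structured RNA and that takes part in the start of translation on many mRNAs. It gathers in stress granules, the cytoplasmic bodies in which mRNAs are stored when translation initiation stalls. Missense mutations of its helicase core recur in medulloblastoma, a tumor of the cerebellum, and G302V is such a change. The codon is shown because it is the only difference in protein sequence that the labels give for the 2 plasmids. It lies in exon 10 of 17 coding exons, at chrX:41203531-41203533 on the plus strand of GRCh37. The reference bases chrX:41203519-41203545, with the GGT codon that the mutation changes in capitals, are as follows.
DDX3X: tgcgtggtttatGGTggtgccgatatt
The deposited tables hold no bases, so the change itself could not be read in the library.

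Values are RPKM, reads per kilobase of transcript and 1000000 reads of the library, and 1 transcript row stood for each gene symbol. A difference is log2(RPKM + 1) in G302V minus that in WT, a scale that understates the change of genes of low level. Of 23204 symbols, 12553 had a row of 200 bases or more and at least 1 RPKM in either library and were compared. A further 8976 stayed below 1 RPKM in both, and 1675 had a shorter row. The recovered depth was about 62740000 reads for WT and 43720000 for G302V, the shallowest of the 6 libraries (up to 180870000). The 95% intervals beside single genes are exact counting intervals from these reads and cover counting error only. Such an interval left out 0 for 7925 of the 12553 genes compared (63.1%), so this alone does not set a gene apart.

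The labels call the cell type neuronal, so markers were examined first. The sum of 13 neuronal markers was 643 RPKM in WT and 772 RPKM in G302V, within 643 to 838 RPKM over the 6 libraries. Nearly all of it came from the neurofilament genes NEFM (514 RPKM in WT and 611 in G302V) and NEFL (109 and 139). The neuronal genes MAP2, STMN2, ELAVL3, ELAVL4 and DCX stayed below 0.1 RPKM in both libraries, while TUBB3 (7.68 and 9.28), INA (3.85 and 3.81), SYP (3.996 and 5.59) and SYT1 (2.43 and 2.15) were expressed. In all, 6 of the 13 reached 1 RPKM in both libraries and 5 were below 0.1 RPKM in both. SNAP25, a synaptic gene, was the only neuronal marker past 1.5-fold, at 1.38 RPKM in WT and 0.290 in G302V (-0.88). Of 10 kidney epithelium markers 7 were below 0.1 RPKM in both, the 5 leukocyte markers summed to 0.938 RPKM in WT and 0.787 in G302V, and the 6 fibroblast markers to 7.64 and 6.69. The summed markers of other cell types therefore differed little between the 2 libraries on the log2 scale (-0.14 for kidney, -0.12 for leukocyte and -0.17 for fibroblast), and their part in the differences below was not tested.

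DDX3X itself was at 119 RPKM with GFP, 2894 with WT, 3279 with T275M, 1906 with G302V, 107 with control siRNA and 31.3 with DDX3X siRNA. All 3 DDX3X plasmids stood far above GFP, and among them G302V was lowest. The G302V level was 65.9% of WT (log2 ratio -0.60, 95% counting interval -0.61 to -0.60), and reads of the gene made up 1.03% of the G302V library and 1.56% of the WT library. The Wilson 95% intervals of these shares were 1.03% to 1.03% and 1.56% to 1.56%. Plasmid and endogenous transcripts are not separated in these values. Every difference below therefore compares cells that differ in the DDX3X variant and in the amount of DDX3X mRNA, and these cannot be told apart.

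Gene levels in the 2 libraries were close. Pearson's r of log2(RPKM + 1) across the 12553 genes was 0.993, the median difference was -0.03 and the central 95% of differences ran from -0.44 to 0.35. At 1.5-fold or more, 138 genes (1.1%) were lower in G302V and 27 (0.215%) were higher. At 2-fold or more the counts were 15 lower (0.119%) and 1 higher (0.00797%). The T275M library, compared with the same WT library, gave 10 lower genes (0.0796%) and 1 higher gene (0.00796%) of 12557 at 1.5-fold. The genes lower in G302V were mostly of low level, with a median of 4.09 RPKM in WT against 11.4 RPKM for all genes compared. Of these 138, 102 reached 1 RPKM in both libraries and 36 only in WT, whereas 24 of the 27 higher genes reached it in both.

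**Figure D1:**
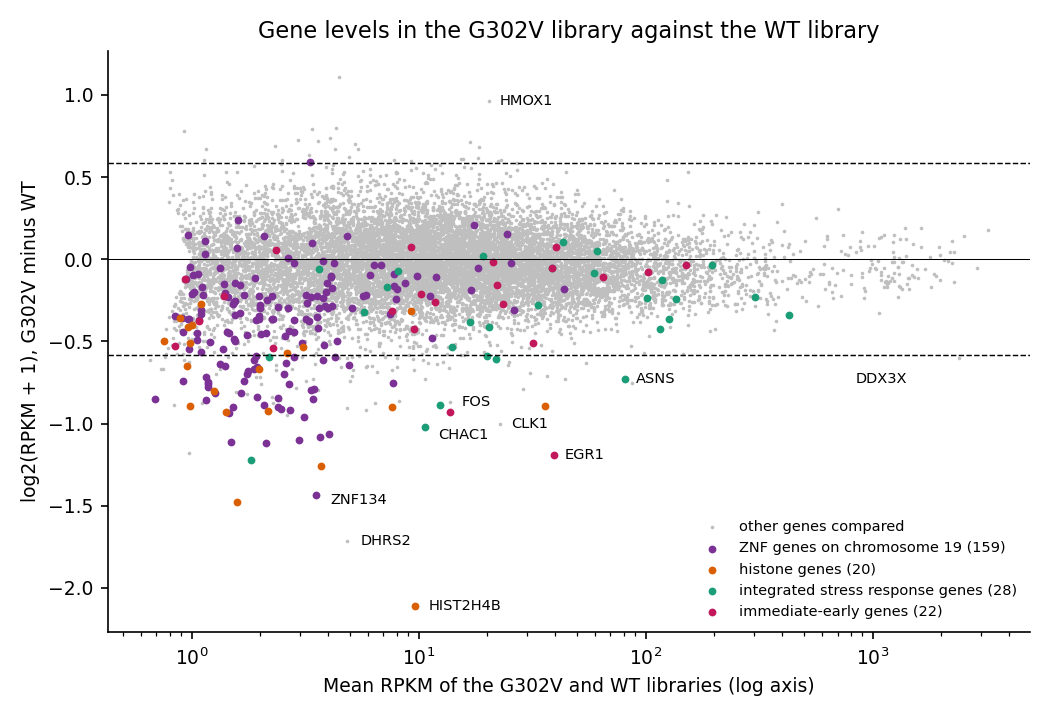
Difference of log2(RPKM + 1) between the G302V and WT libraries (vertical axis) against the mean RPKM of both (horizontal log axis), 1 point per gene for 12553 genes. Coloured points are the ZNF genes of chromosome 19, histone genes, integrated stress response genes and immediate-early genes compared (ATF3, in both of the last lists, is drawn as immediate-early), and the dashed lines mark 1.5-fold. The coloured groups lie mostly below 0, and the lower genes outnumber the higher ones, 138 against 27.

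Zinc finger genes made up the largest block of the lower genes. Genes named ZNF with a number encode mostly C2H2 zinc finger proteins, a large family of DNA-binding repressors that stands in tandem clusters, many of them on chromosome 19. This family was taken as a list after the values were seen. Of its 528 members 387 were compared, and 314 of these had a difference below 0, against 57.0% of all genes. At 1.5-fold or more, 55 (14.2% of those compared) were lower, against 1.1% of all genes. Another, ZNF628, was higher (0.59). The 55 genes were 39.9% of all lower genes. This count rests on genes of low level, since with a filter of 10 RPKM 1 of 73 ZNF genes was among 33 lower genes, and with a pseudocount of 10 none was among 10.

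The difference was concentrated on chromosome 19. There 44 of 159 ZNF genes compared (27.7%) were lower, with a median of -0.34, while 5 of 701 other genes of the same chromosome (0.713%) were lower, with a median of -0.03. On the other chromosomes 11 of 228 ZNF genes were lower (4.82%, against 1.1% of all genes) and their median was -0.11. Without the filter on level, 209 of the 237 chromosome 19 ZNF genes with a read were below WT and 28 above. In genes with a mean of 1 to 10 RPKM over the 6 libraries, 40 of 133 chromosome 19 ZNF genes were lower (30.1%). Of ZNF genes on other chromosomes in that band, 11 of 168 were lower (6.55%), with a median of -0.11. Of other chromosome 19 genes 4 of 257 were lower (1.56%), as were 46 of 5263 genes that are not ZNF on any chromosome (0.874%). Of the 159 chromosome 19 ZNF genes compared, 37 reached 1 RPKM only in WT.

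Within chromosome 19 the lower genes fell in some clusters and not in others. In windows of 1000000 bases on the files' build, hg19, the window from 44 to 45 Mb held 15 ZNF genes compared, of which 10 were lower (median -0.78). The window from 58 to 59 Mb held 23 with 10 lower (median -0.44), that from 37 to 38 Mb 16 with 7 lower (median -0.56), and those from 52 to 53 and 57 to 58 Mb had 5 lower each, of 12 and 11. By contrast, 0 of the 10 ZNF genes from 53 to 54 Mb and 0 of the 7 from 21 to 22 Mb were lower, with medians of -0.17 and -0.18. Neighbouring clusters thus differed in how many of their genes were lower. Reads may be divided between related zinc finger genes in a way the sources do not state, so values of single members are less certain than those of the family.

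**Figure D2:**
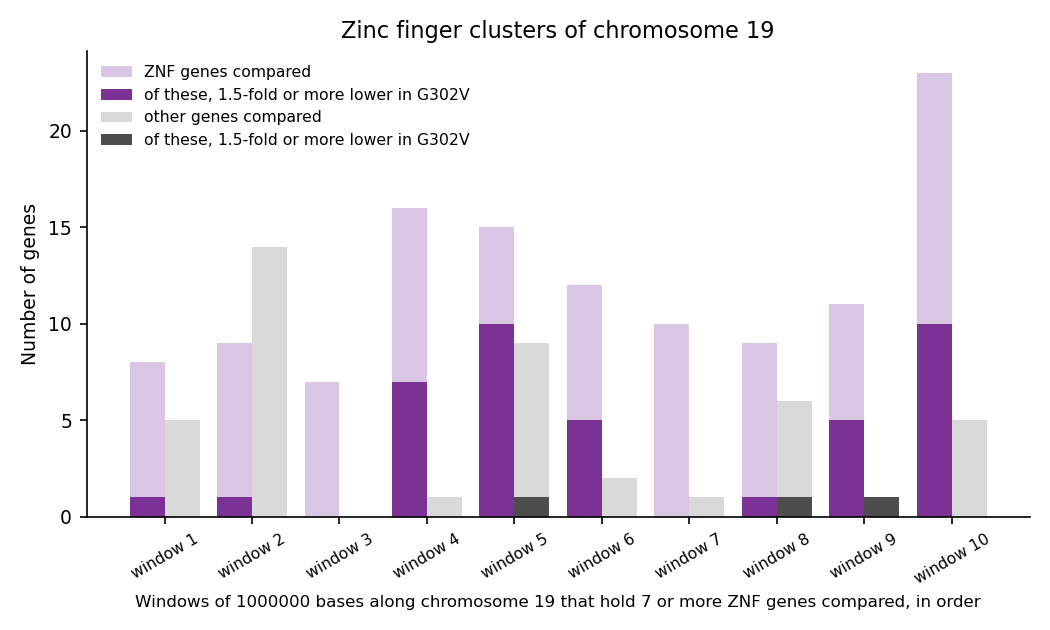
Number of genes compared (light bars) and of genes 1.5-fold or more lower in G302V (dark bars), for ZNF genes (purple) and other genes (grey), in the 10 windows of 1000000 bases of chromosome 19 that hold 7 or more ZNF genes compared, in order along the chromosome. The fifth window, from 44 to 45 Mb, has 10 of 15 ZNF genes lower, and the third and the seventh have none.

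ZNF134 had the largest difference of the family. It was at 1.92 RPKM with GFP, 5.63 with WT, 4.45 with T275M, 1.46 with G302V, 2.91 with control siRNA and 1.70 with DDX3X siRNA (log2 ratio -1.43, 95% counting interval -1.60 to -1.27, from 794 reads in WT and 143 in G302V). WT and T275M stood apart at the top, and G302V was the lowest of the 6 libraries. ZNF256 was at 0.80, 2.42, 2.03, 0.580, 0.751 and 0.573 RPKM in the same order of libraries (-1.11, -1.28 to -0.93). Again WT and T275M were the highest and G302V lay with GFP and the siRNA libraries. In the cluster near 44 Mb, ZNF222 was at 1.31, 3.28, 2.51, 0.971, 0.924 and 0.673 RPKM (-1.12, -1.32 to -0.91) and ZNF227 at 3.09, 5.37, 4.39, 2.01, 3.50 and 2.23 RPKM (-1.08, -1.22 to -0.94). These 4 were chosen after their values were seen, because all lie below 10 RPKM. ZNF367, on chromosome 9, was the only ZNF gene among the 12 largest falls above 10 RPKM, at 4.802, 10.9, 9.59, 5.56, 4.94 and 5.04 RPKM (-0.86, -0.96 to -0.76).

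Histone genes were the next group. Replication-dependent histone genes, which stand in the HIST clusters of chromosomes 1 and 6, supply histone protein during DNA synthesis, and most of their mRNAs end in a stem-loop instead of a poly(A) tail. How well the libraries hold mRNAs without poly(A) is not given in the sources used here. Of the 70 genes 20 were compared, all 20 were below 0 (median -0.66) and 11 were 1.5-fold or more lower, against 57.0% and 1.1% of all genes. Of these 20, 11 passed the filter only through WT, where they were high, so the count is a description. Over all 70 genes the summed level was 71.9 RPKM with GFP, 133 with WT, 89.5 with T275M, 62.7 with G302V, 78.5 with control siRNA and 81.6 with DDX3X siRNA. The sum was highest in WT and lowest in G302V, and WT stood apart from the other 5 libraries. Of 62 histone genes with at least 1 read, 54 were below WT and 8 above.

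HIST2H4B, a histone H4 gene of chromosome 1, had the largest difference of all 12553 genes. It was at 2.58 RPKM with GFP, 16.3 with WT, 8.28 with T275M, 3.004 with G302V, 2.73 with control siRNA and 2.16 with DDX3X siRNA, and its log2 ratio was -2.11 (95% counting interval -2.34 to -1.88, from 809 and 104 reads). WT was highest and T275M next, and the other 4 libraries lay close together. The tables hold this symbol under 2 rows with the same values, so copies of the gene are not separated. HIST1H1C, a linker histone gene, was at 5.38, 10.2, 7.18, 5.00, 5.24 and 5.67 RPKM in the same order (-0.90, -1.13 to -0.68), and HIST1H2BK, an H2B gene, at 30.3, 47.0, 33.9, 24.9, 35.7 and 36.7 RPKM (-0.89, -0.999 to -0.79). For both genes WT was the highest library and G302V the lowest. HIST3H2A, at the other end among members above 10 RPKM, was at 10.4 RPKM in WT and 8.16 in G302V (-0.31).

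Among histone genes outside these clusters, H1F0, a linker histone made outside S phase, was just short of 1.5-fold at 174 RPKM in WT and 116 in G302V (-0.58), with 82.1 in GFP and 161 in T275M. H2AFZ was at 725 and 616 RPKM (-0.23) and H3F3B at 173 and 154 (-0.17), both chosen, like H1F0, after their values were seen. In the list of DNA replication genes and E2F targets, which are active in the same phase of the cell cycle, 35 of 38 were below 0. That compares with 57.0% of all genes, and the list had a median of -0.19 and no member at 1.5-fold. E2F2 (9.60 RPKM in WT and 5.66 in G302V, -0.67) and E2F8 (10.1 and 6.02, -0.65), which it does not hold, were past 1.5-fold. RFC2 (64.9 RPKM in WT and 51.2 in G302V, -0.34) and MCM6 (73.1 and 57.9, -0.33) were the lowest and POLE (26.4 and 30.5, 0.20) the highest of that list. The 36 genes of mitosis and G2 had a median of -0.10, from HMGB2 (-0.30) and CCNB1 (-0.28) to CENPF (0.17).

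The integrated stress response formed a smaller group with a common direction. In this response, phosphorylation of the initiation factor eIF2 slows most translation and raises that of the transcription factor ATF4, which turns on genes of amino acid supply. Of 29 genes 28 were compared, 25 were below 0, and 7 (NUPR1, CHAC1, CTH, ASNS, PCK2, SLC7A11 and DDIT3) were 1.5-fold or more lower, with a median of -0.30 and none higher. That is 7 of 28 against 1.1% of all genes, and 25 of 28 below 0 against 57.0%. Of these, NUPR1 reached 1 RPKM only in WT. With DDX3X siRNA the median of the same 28 genes was -0.38 against control siRNA, from 2 other libraries.

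CHAC1, which breaks down glutathione and is an ATF4 target, was at 12.04 RPKM with GFP, 14.6 with WT, 8.71 with T275M, 6.69 with G302V, 6.91 with control siRNA and 1.18 with DDX3X siRNA (log2 ratio -1.02, 95% counting interval -1.16 to -0.88). WT was highest, G302V was the lowest plasmid library, and DDX3X siRNA was lowest of all. CTH, the last enzyme of cysteine synthesis from methionine, was at 9.49, 16.4, 14.2, 8.41, 10.7 and 5.78 RPKM (-0.88, -0.99 to -0.78). ASNS, asparagine synthetase, was at 82.2, 102, 82.5, 60.9, 113 and 47.3 RPKM (-0.73, -0.78 to -0.68). In all 3 genes G302V was the lowest plasmid library and DDX3X siRNA was below its control. NUPR1, a stress-induced nuclear protein, was at 2.95 RPKM in WT and 0.693 in G302V (-1.22), PCK2, a mitochondrial enzyme of phosphoenolpyruvate synthesis, at 26.7 and 17.2 (-0.60), and DDIT3, the transcription factor CHOP, at 24.2 and 15.7 (-0.59).

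The mRNA of ATF4 itself was at 487 RPKM with GFP, 480 with WT, 415 with T275M, 380 with G302V, 453 with control siRNA and 270 with DDX3X siRNA (-0.34, -0.36 to -0.31). It was lowest with DDX3X siRNA and next lowest with G302V, and did not reach 1.5-fold in this comparison. Further members short of 1.5-fold were PPP1R15A, which helps to reverse the phosphorylation of eIF2 (16.8 RPKM in WT and 11.3 in G302V, -0.53), the transporter subunit SLC3A2 (-0.43) and PSAT1, an enzyme of serine synthesis (-0.36). Nearer to WT were, among others, ATF3 (39.6 RPKM in WT and 38.1 in G302V), TRIB3 (8.33 and 7.87) and the amino acid transporters SLC38A2 (41.5 and 44.6, 0.10) and SLC7A5 (60.1 and 62.4, 0.05), the 2 highest above 10 RPKM. Cysteine and methionine tRNA synthetases CARS (36.6 and 24.8 RPKM, -0.54) and MARS (146 and 109, -0.41) were the lowest of 37 synthetases, whose median was -0.10 and of which none reached 1.5-fold.

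The stretches before the transcript start of 2 of these genes are printed because they hold the letters TGATGNAA, the core of the C/EBP-ATF response element to which ATF4 dimers bind. Sequences are from RefSeq on GRCh38.p14, written along the gene, with the match in capitals. ASNS lies on the minus strand, its match starts 68 bases before the transcript start, and the window is chr7:97872409-97872658. CHAC1 lies on the plus strand, its match is on the opposite strand and starts 209 bases before the transcript start, and the window is chr15:40953221-40953470.
ASNS: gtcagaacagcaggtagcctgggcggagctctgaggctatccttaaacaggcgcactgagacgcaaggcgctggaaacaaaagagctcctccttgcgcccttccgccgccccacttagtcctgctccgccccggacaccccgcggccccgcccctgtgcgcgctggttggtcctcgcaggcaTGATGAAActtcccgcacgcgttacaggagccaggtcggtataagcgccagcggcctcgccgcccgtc
CHAC1: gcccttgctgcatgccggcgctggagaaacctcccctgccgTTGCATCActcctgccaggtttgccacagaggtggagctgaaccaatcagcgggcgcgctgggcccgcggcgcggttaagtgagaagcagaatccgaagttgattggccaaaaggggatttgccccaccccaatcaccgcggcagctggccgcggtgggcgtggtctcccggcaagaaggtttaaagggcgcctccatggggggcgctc
On either strand, 1104 of the 35116 RefSeq windows of 250 bases hold these letters (3.14%), as do 6 of 38 windows of the integrated stress response genes and 4 of 133 windows of the genes 1.5-fold or more lower (3.01%). A match is a string of letters and no measure of binding.

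Immediate-early genes, which are transcribed within minutes of a growth or stress signal, were below 0 in 19 of 22 compared (median -0.22) and 2 of them were 1.5-fold or more lower, against 57.0% and 1.1% of all genes. Of the 22, 3 reached 1 RPKM only in WT. EGR1, a zinc finger transcription factor induced by growth factors, was at 58.9 RPKM with GFP, 55.2 with WT, 48.6 with T275M, 23.6 with G302V, 0.557 with control siRNA and 0.451 with DDX3X siRNA (log2 ratio -1.19, 95% counting interval -1.25 to -1.14). The other plasmid libraries lay close together above G302V, while the siRNA libraries held almost no EGR1. FOS, a subunit of the AP-1 factor, was at 23.0, 18.4, 18.3, 9.18, 1.153 and 1.73 RPKM (-0.93, -1.03 to -0.83). Over the plasmid libraries it had the same order, with G302V lowest, and both siRNA libraries were lower still. Its relative FOSB was at 1.18 RPKM in WT and 0.515 in G302V (-0.53) and IER2 at 37.7 and 26.2 (-0.51), both short of 1.5-fold, as were ZFP36 (2.89 and 1.68, -0.54) and KLF6 (11.1 and 8.003, -0.42).

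At the other end of the list, JUN was at 104 RPKM with GFP, 152 with WT, 167 with T275M and 148 with G302V (-0.04), MYC at 119, 105, 102 and 99.1 (-0.08), and the largest differences above 0 in the list were those of NR4A1 (0.08) and JUND (0.07). The 10 feedback regulators of MAP kinase signalling compared had a median of -0.04 and none at 1.5-fold, with DUSP1 at 37.6 and 38.2 RPKM (0.02) and SPRY2 at 12.8 and 10.98 (-0.20). Targets of the factors SRF and YAP, which answer to actin and cell shape, had a median of -0.06 over 22 genes. MYH9 was the highest (42.7 and 57.4 RPKM, 0.42) and CYR61 (11.6 and 8.37, -0.43) the lowest above 10 RPKM. The smooth muscle actin gene ACTA2 was at 1.59 RPKM with GFP, 7.10 with WT, 10.2 with T275M and 4.55 with G302V (-0.55, -0.72 to -0.37). This is the order of the DDX3X level, which 19.2% of all genes with G302V below WT followed.

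The window before EGR1 is printed because its CArG boxes, the sites of SRF, are a well known part of this promoter and stand in capitals. It covers chr5:138465229-138465478 on the plus strand of GRCh38.p14, again from RefSeq, and the 2 boxes start 105 and 83 bases before the transcript start.
EGR1: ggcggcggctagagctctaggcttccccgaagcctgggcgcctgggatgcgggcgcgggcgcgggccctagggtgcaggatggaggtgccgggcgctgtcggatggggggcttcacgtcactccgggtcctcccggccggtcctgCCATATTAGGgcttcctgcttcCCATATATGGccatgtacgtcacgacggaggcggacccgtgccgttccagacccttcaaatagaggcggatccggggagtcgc
A CArG box was found in 407 of the 35116 windows (1.16%), in 3 of 27 windows of immediate-early genes (EGR1, EGR2 and SRF) and in 3 of 133 windows of the lower genes (2.26%).

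CLK1, a kinase that phosphorylates SR splicing factors, was at 14.2 RPKM with GFP, 30.9 with WT, 29.7 with T275M, 14.9 with G302V, 20.1 with control siRNA and 18.2 with DDX3X siRNA (log2 ratio -1.005, 95% counting interval -1.09 to -0.92). WT and T275M were similarly high and G302V lay with GFP, and the 4 transcript rows of the gene gave -1.005 to -0.954. Its paralog CLK4 was at 6.92, 13.5, 13.4, 7.76, 7.11 and 7.30 RPKM (-0.73, -0.83 to -0.62), whereas CLK2 (-0.20) and CLK3 (-0.12) differed less. The CDC-like kinases were taken as a list after their values were seen. The cyclin gene CCNL1 (30.5 RPKM in WT and 19.4 in G302V, -0.62), RSRC2 (66.7 and 42.8, -0.63) and PTBP2 (13.5 and 8.39, -0.63), all linked to splicing, were lower too, and they were likewise chosen afterwards and form no fixed list. Among 35 hnRNP and SR splicing factors 29 were below 0, against 57.0% of all genes. Their median was -0.15 and none was at 1.5-fold, with SRSF7 (176 and 133 RPKM, -0.40) lowest.

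SNHG15, a noncoding gene that hosts a small nucleolar RNA, was at 65.3 RPKM with GFP, 109 with WT, 98.1 with T275M, 64.4 with G302V, 48.6 with control siRNA and 46.5 with DDX3X siRNA (log2 ratio -0.75, 95% counting interval -0.82 to -0.68). G302V was at the level of GFP, below WT and T275M. SNHG12 had the same pattern at 27.5, 38.6, 32.6, 23.5, 24.99 and 27.8 RPKM (-0.69, -0.81 to -0.57). SNHG15 is not in the list of such hosts and SNHG12 is 1 of its 13 genes compared, whose median was -0.07. EPB41L4A-AS1 was at 19.6 RPKM in WT and 12.9 in G302V (-0.56), and SNHG3 (41.1 RPKM in WT and 50.4 in G302V, 0.29) and SNHG4 (21.3 and 25.7, 0.26) were the highest of the list. The noncoding LOC100507217 (36.7 and 20.8, -0.79) and C2orf74 (18.1 and 9.496, -0.87) complete the 12 largest falls. Rows of noncoding accessions were 21 of the 138 lower genes (15.2%) and 4 of the 27 higher genes (14.8%), against 7.56% of all genes compared. The library kit does not mark strand, so reads of overlapping genes on opposite strands are not separated.

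DHRS2, a dehydrogenase of the short-chain family, was the second largest difference of all genes compared, although below 10 RPKM. It was at 1.73 RPKM with GFP, 7.92 with WT, 5.48 with T275M, 1.72 with G302V, 2.15 with control siRNA and 1.95 with DDX3X siRNA (log2 ratio -1.71, 95% counting interval -1.90 to -1.53). Only WT and T275M stood above the rest. The secreted factors GDF15, LIF and INHBE, chosen like DHRS2 after their values were seen, were nearly absent without a DDX3X plasmid. GDF15 was at 0.213, 3.44, 5.34, 1.45, 0.296 and 0.332 RPKM (-0.86, -1.10 to -0.61) and LIF at 0.427, 3.18, 4.05, 1.34, 0.351 and 0.370 (-0.84, -0.97 to -0.70). In both, the order over the plasmid libraries was that of the DDX3X level, from GFP through G302V and WT to T275M. That order held in 12 of the 137 lower genes without DDX3X (8.76%), against 19.2% of all genes with G302V below WT. INHBE was at 0.284, 1.73, 2.07, 0.206, 0.267 and 0.104 RPKM (-1.18, -1.30 to -1.03), so that G302V did not exceed GFP.

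**Figure D3:**
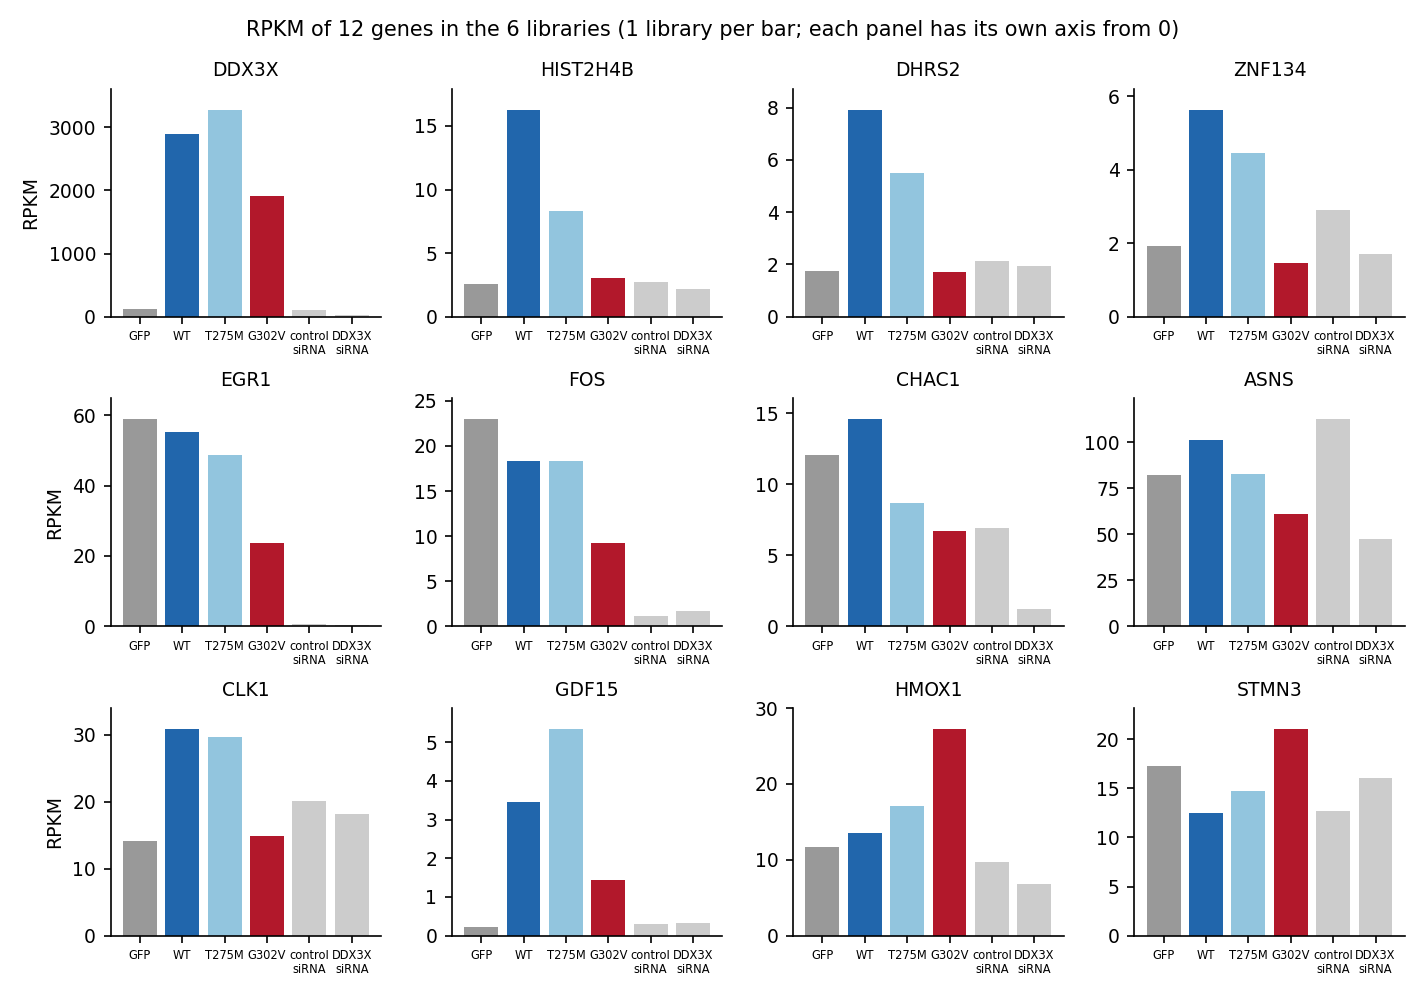
RPKM of 12 genes in the 6 libraries, 1 bar per library and no replicates, with a separate axis from 0 for each gene. HIST2H4B, DHRS2, ZNF134 and CLK1 are high with WT and T275M and near the GFP level with G302V, EGR1 and FOS are low in G302V among the plasmid libraries, GDF15 follows the order of DDX3X, and HMOX1 and STMN3 are highest in G302V among the plasmid libraries.

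The lower genes were then followed over the other plasmid libraries. For the 137 lower genes without DDX3X the median difference was -0.73 in G302V minus WT, which chose them. The T275M library minus the GFP library, neither of which chose them, had a median of 0.53 in these genes against 0.07 over all genes compared. T275M was above GFP in 127 of the 137 (92.7%), against 62.2% of all 7155 genes with G302V below WT. On the log2 scale, 114 of the 137 (83.2%) had GFP nearer to G302V and T275M nearer to WT. Both were nearer to WT in 7 (5.11%), and 12 (8.76%) followed the full order of the DDX3X level. Over all 7155 genes with G302V below WT the same 3 shares were 43.4%, 21.0% and 19.2%. The shares of the 137 genes use the G302V and WT values that chose the genes. WT was above the other 3 plasmid libraries in 118 of the 137. The shares are therefore descriptions and nothing is read from them. Side by side, the medians of the 137 genes were 0.67 for WT minus GFP, -0.09 for G302V minus GFP and -0.15 for T275M minus WT, and these comparisons share libraries with the choice. Of the 55 lower ZNF genes, chosen for WT above G302V, 54 had T275M above GFP. So did 142 of all 159 ZNF genes of chromosome 19 compared (89.3%), lower or not. Over all 387 ZNF genes compared the median of T275M minus GFP was 0.25.

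The genes higher in G302V were fewer and of another kind. HMOX1, heme oxygenase, an enzyme induced by oxidative stress and heme, had the largest rise among genes above 10 RPKM. It was at 11.7 RPKM with GFP, 13.5 with WT, 17.0 with T275M, 27.3 with G302V, 9.75 with control siRNA and 6.88 with DDX3X siRNA (log2 ratio 0.96, 95% counting interval 0.87 to 1.06, from 1348 and 1897 reads). G302V was highest by a wide margin and the other 5 libraries lay within a narrower range. The antioxidant genes of the factor NRF2 did not rise with HMOX1 as a list. Of the 19 compared, HMOX1 included, 15 were below 0, against 57.0% of all genes. Their median was -0.05, which is -0.02 relative to all genes. SLC7A11, the cystine transporter, was 1.5-fold lower (2.84 and 1.55 RPKM, -0.59). Of the nonsense-mediated decay factors, with a median of -0.01 over 10 genes, only the kinase SMG1 passed 1.5-fold (0.60). In the list of p53 target genes, 16 of 28 were below 0, against 57.0% of all genes, with a median of -0.01. Besides GDF15 only TP53INP1 of this list passed 1.5-fold. The list does not hold PMAIP1, which was lower (45.9 RPKM in WT and 27.7 in G302V, -0.71). TP53INP1, a factor of autophagy and cell death, was at 1.77 RPKM with GFP, 3.09 with WT, 4.64 with T275M and 5.5003 with G302V (0.67, 0.58 to 0.76).

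Other rises above 10 RPKM lay closer to 1.5-fold. STMN3, a regulator of microtubules, was at 17.3, 12.5, 14.7, 21.1, 12.6 and 16.0 RPKM (0.71, 0.63 to 0.80) and SLC2A1, the glucose transporter GLUT1, at 14.6, 14.3, 21.2, 22.4, 21.2 and 29.0 RPKM (0.62, 0.55 to 0.68). For SLC2A1 the T275M library was almost as high as G302V. NSD1, a histone methyltransferase, was at 11.2, 12.3, 15.0, 19.3, 16.8 and 27.9 RPKM (0.61, 0.57 to 0.65). It was also higher with DDX3X siRNA than with its control. DYNC1H1 (the dynein heavy chain), FLNC (filamin C), FBN2 (fibrillin 2) and TTC3 (a ubiquitin ligase) had differences of 0.60 to 0.61. Among the higher genes of low level were TET1, a DNA demethylation enzyme (2.90 and 5.78 RPKM, 0.80), and LRP1, an endocytic receptor (2.23 and 4.59, 0.79). MLL2, a histone methyltransferase (3.95 and 6.89, 0.67), was another, and all of these were named after their values were seen. HSP90AA6P had the largest rise of all (1.11, 0.69 to 1.51), but it is a pseudogene row of 86 reads whose reads may belong to a related gene.

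Many of the higher genes have long transcripts, and the difference moved with transcript length across all genes. The median difference was -0.15 for rows of 200 to under 500 bases, -0.12 from 500, -0.09 from 1000, -0.05 from 2000, 0.05 from 4000 and 0.19 from 8000 bases. Rows of 8000 bases or more held 530 genes and 11 of the 27 higher genes, but 1 of the 138 lower genes. T275M minus WT ran from -0.08 in the shortest to 0.11 in the longest rows, and DDX3X siRNA minus control siRNA from -0.05 to 0.19. After a quadratic trend on length and GC content was removed, NSD1 stood at 0.34, FLNC at 0.33, FBN2 at 0.35 and DYNC1H1 at 0.25, all below 1.5-fold, as were MLL2 at 0.18, SMG1 at 0.26 and LRP1 at 0.39, and HMOX1 at 1.00 and STMN3 at 0.69 above it. Of the 138 lower genes 103 stayed past 1.5-fold, among them HIST2H4B at -2.03, EGR1 at -1.22, ZNF134 at -1.43 and CLK1 at -0.89, while DDIT3 at -0.49, RSRC2 at -0.54, PTBP2 at -0.57 and CCNL1 at -0.58 did not. By GC content the medians ran from -0.06 in the 2477 genes of lowest GC to 0.01 in the 2477 of highest GC, and these groups held 41 and 11 of the lower genes.

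**Figure D4:**
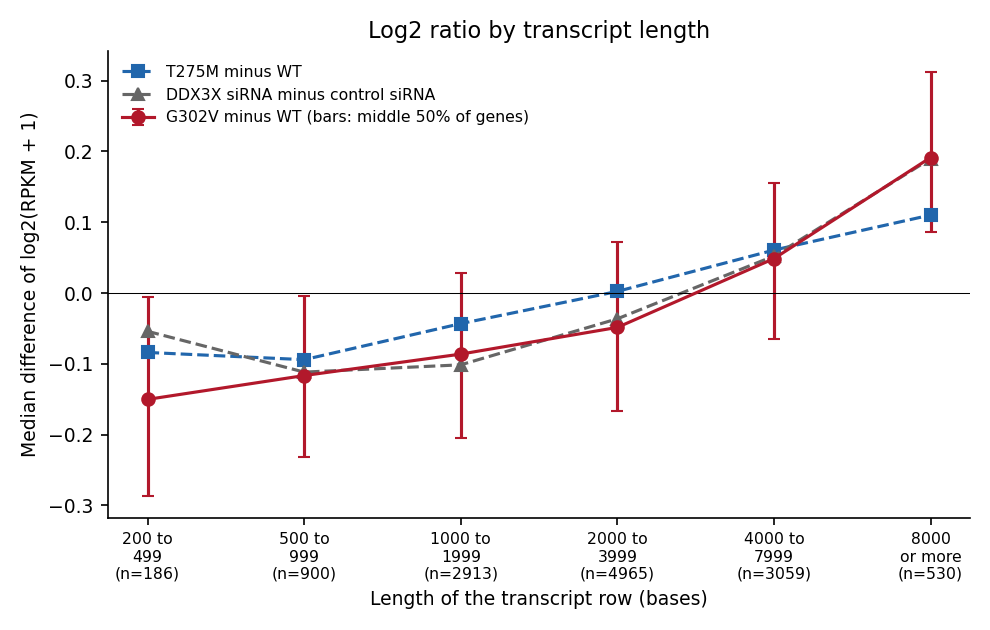
Median difference of log2(RPKM + 1) for genes grouped by the length of their transcript row, with the number of genes in each group. Red points are G302V minus WT with bars over the middle 50% of genes, blue squares are T275M minus WT and grey triangles DDX3X siRNA minus control siRNA. The red medians rise from -0.15 in the shortest to 0.19 in the longest group.

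Translation and growth genes showed small differences without calls at 1.5-fold. The counts below 0 stand beside 57.0% of all genes compared. Of 40 ribosome biogenesis and nucleolar protein genes 35 were below 0 with a median of -0.14, with GAR1 at 73.5 and 57.8 RPKM (-0.34) and NOP58 at 146 and 115 (-0.33), both proteins of small nucleolar ribonucleoproteins. Of 76 mitochondrial ribosomal protein genes 61 were below 0 (median -0.13), and of 73 respiratory chain and ATP synthase genes also 61 (median -0.10). The 82 cytosolic ribosomal protein genes had a median of -0.06, and their range was narrow, from -0.26 for RPL36AL to 0.19 for RPL41. The 46 translation initiation factors had a median of -0.06, with EIF1B (65.8 and 48.2 RPKM, -0.44) and EIF1 (424 and 327, -0.37), which act in start codon choice, lowest and EIF5 (58.7 and 68.8, 0.22) highest. The ribosomal protein and respiratory chain lists have short rows. Relative to all genes, the mitochondrial ribosomal median was -0.094 before and -0.024 after the length trend was removed. That of the respiratory chain was -0.063 and 0.0013, and that of the cytosolic ribosomal proteins -0.024 and 0.051. For the ribosome biogenesis list it was -0.11 and -0.091, and for the initiation factors -0.029 and -0.018. Values with GC content removed too are given with the alternatives.

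A list of 7 mRNAs that the study names as DDX3X targets was examined. None reached 1.5-fold and their median was -0.04, from PNN (89.6 and 75.4 RPKM, -0.25) and HELLS (28.8 and 24.7, -0.21) to EEF1A1 (2390 and 2635, 0.14). PTMA was at 1305 RPKM in WT and 1310 in G302V. The 2 that it names as unbound, DDX10 (28.3 and 26.6 RPKM, -0.09) and TPR (40.7 and 40.8, 0.00), were as close. Among 51 DEAD-box and DEAH-box helicases the median was -0.09, DDX3X alone passed 1.5-fold, and DDX27 (55.0 and 43.6, -0.33) and DHX33 (21.7 and 25.5, 0.22) were the outermost other members above 10 RPKM. The 23 core proteins of stress granules had a median of 0.01, with PRRC2C (25.6 and 34.1, 0.40) highest and USP10 (54.6 and 46.3, -0.23) lowest.

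Some lists had medians above 0, with no member past 1.5-fold. Of all genes compared, 57.0% were below 0. Genes of cholesterol synthesis and uptake had a median of 0.14, with 8 of 24 below 0, and INSIG1, a sterol sensor of the endoplasmic reticulum (42.6 and 54.7 RPKM, 0.35), and LSS, lanosterol synthase (18.1 and 23.7, 0.37), were highest. Genes of the Wnt and beta-catenin pathway had a median of 0.10, with DVL3 (20.4 and 27.4, 0.41) and CCND1 (17.0 and 22.9, 0.40) highest. Relative to all genes it was 0.13, 0.054 with the length trend removed and 0.018 with GC content removed too. CTNNB1, beta-catenin itself, was at 154 and 142 RPKM (-0.11). Unfolded protein response genes were below 0 in 6 of 21 (median 0.05), with the chaperones HYOU1 (53.8 and 67.5, 0.32) and HSPA5 (127 and 152, 0.26) highest above 10 RPKM. The heat shock genes HSPA1A (351 and 443, 0.34) and HSPA1B (628 and 777, 0.31), near-identical copies that are uncertain one by one, were the highest of 21 chaperone genes, whose median was 0.00. The 21 elongation factor and other TOP mRNAs had a median of -0.02, from NACA (-0.24) to PABPC1 (0.23), and 8 nuclear long noncoding RNAs had one of -0.10. Interferon-stimulated and sensing genes had a median of -0.02 over 18 compared of 35, with EIF2AK2 (8.32 and 10.9, 0.35) and IFI6 (13.3 and 10.6, -0.30) as the extremes above 10 RPKM.

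**Figure D5:**
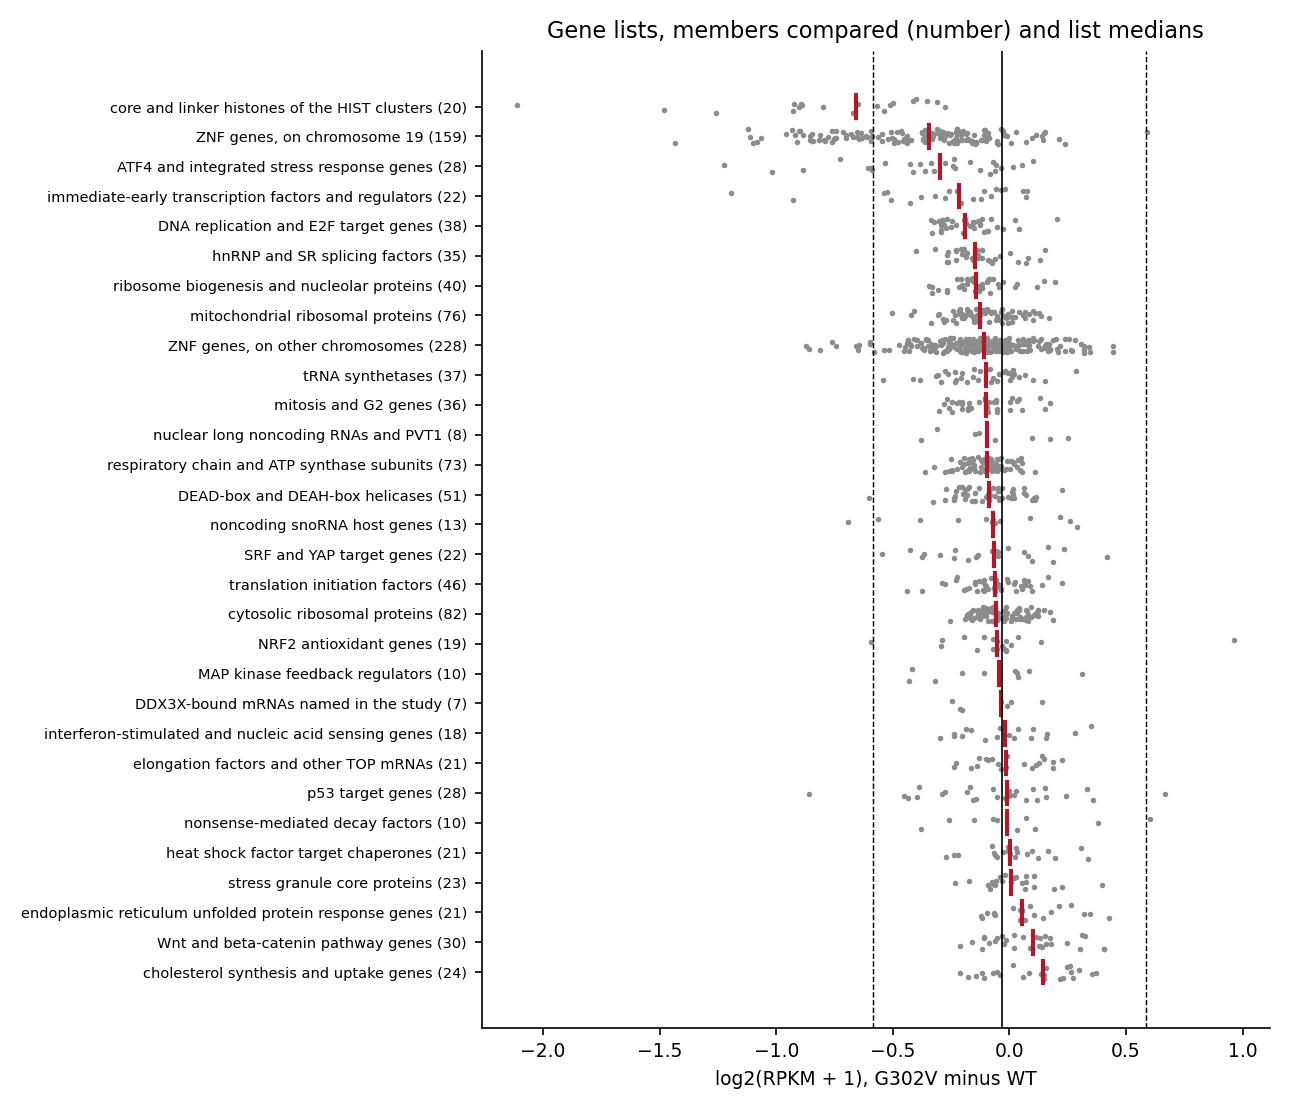
Difference of log2(RPKM + 1), G302V minus WT, for the members compared of gene lists with 5 or more such members. Lists of cell type markers and the ZNF list as a whole are not drawn. Grey points are genes, with the number in brackets, and red bars are list medians. The solid line is the median of all 12553 genes, -0.03, and the dashed lines mark 1.5-fold. Among the lists drawn, histone genes (median -0.66) and the ZNF genes of chromosome 19 (-0.34) lie lowest and cholesterol genes (0.14) highest.

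Across all 12553 genes, the difference of G302V and WT was also set beside differences between libraries it does not share. With T275M minus GFP, Pearson's r was -0.13 and Spearman's rho -0.04, and r was -0.21 after the trends on length and GC content were removed from both. With DDX3X siRNA minus control siRNA, r was 0.506 and rho 0.520, and r was 0.411 after that removal. Genes are not independent replicates, and the points share the base composition and length of their transcripts, so these values describe the 4 libraries of each pair.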

How the data were processed

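RNA from 6 HEK293T samples was sequenced on a HiSeq 2000 from TruSeq RNA v2 libraries, which do not mark strand. The submitters' processing notes name BWA 0.5.5, cutadapt and the build hg19. The authors deposited RPKM values per RefSeq transcript row, 39618 rows in all, although their methods write FPKM. Values were whole multiples of what 1 read is worth for 100% of the rows checked (within 0.1 read), which gave the depth and the reads per gene. A count of 0 allows up to 3 reads, 0.0478 reads per 1000000 in WT and 0.0686 in G302V.

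From the deposited values, the row of highest mean RPKM was kept for each symbol and log2(RPKM + 1) was subtracted between libraries, for rows of 200 bases or more with 1 RPKM in either library. A gene was counted at 1.5-fold. With 1 library per group no test was made. Counting intervals are exact (Clopper-Pearson, 95%), Wilson for shares, and cover counting error only, since the reads carry no molecular identifiers. RefSeq symbols matched 12498 genes (99.6%) and GC content was known for 12384 (98.7%). The codon was read from GENCODE 44 lifted to GRCh37. The scripts were tested on simulated data for G302V minus WT. There, over 12470 genes, 96.5% of the 85 genes changed 2-fold below 10 RPKM and 100% of the 115 from 10 RPKM were found. Of 12270 unchanged genes 0 were called. Each unchanged gene had the same level in both simulated libraries, and its reads differed by counting error only. The simulation held no difference between transfections or sorts and no length trend, so it gives no rate of false calls for these data.

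The members, the gene lists and the alternatives were chosen with earlier results of these data known. Named genes are the 12 largest rises and falls past 1.5-fold at 10 RPKM or more, DDX3X, and in each list the members past 1.5-fold or, where these are more than 4 or fewer than 2, the 2 lowest and the 2 highest at 10 RPKM or more. 1 gene that this rule takes is not reported here. All other genes named were chosen after their values were seen, as were the lists of ZNF genes and CDC-like kinases. Alternatives changed the pseudocount, filter, scaling, row choice and threshold, and removed trends on length and GC content. The work was done in Python 3.11.15 with pandas 2.3.3, numpy 2.4.6 and biopython 1.88, intervals with scipy 1.17.1 and plots with matplotlib 3.10.9.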

Additional observations from a re-analysis of the deposited data

How the results depend on the processing

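Lower genes numbered 294 with a pseudocount of 0.1, 10 with a pseudocount of 10, 33 at 10 RPKM or more, 228 on reads per 1000000 without length and 15 at 2-fold, against 138. Higher genes numbered 91, 1, 9, 76 and 1 under the same changes, 46 with rows of any length and 44 with median-ratio scaling, against 27. That scaling shifted the median of all genes by 0.05 and left 108 lower genes, so the split of 138 to 27 became 108 to 44. With the length trend removed, 115 of the 138 lower and 14 of the 27 higher genes remained. The DDX3X log2 ratio was -0.54 with median-ratio scaling and -0.68 with the length trend removed.

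The share of lower genes with GFP nearer G302V and T275M nearer WT was 75.1% with a pseudocount of 0.1, 55.6% with one of 10 and 73.2% without ZNF genes, and with a pseudocount of 10 both lay nearer WT in 22.2%. These alternatives were added after the data were seen. Relative to all genes, list medians with the length trend removed, and then with GC content too, were 0.051 and 0.053 for cytosolic ribosomal proteins, -0.024 and 0.00015 for mitochondrial ribosomal proteins, and 0.0013 and 0.011 for the respiratory chain. The histone median was -0.96 with a pseudocount of 0.1 and -0.15 with one of 10. The ZNF median was -0.21, -0.051, -0.038 and -0.22 with pseudocounts of 0.1 and 10, at 10 RPKM or more and on reads per 1000000. For ZNF genes of chromosome 19 it was -0.46, -0.080 and -0.073 under the first 3 of these changes, and on other chromosomes -0.025 with a pseudocount of 10 and -0.027 at 10 RPKM or more.

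Of the 21 largest rises and falls, 7 kept 1.5-fold under every alternative run (HIST2H4B, EGR1, CLK1, HIST1H2BK, LOC100507217, SNHG15 and HMOX1). No replicate could be left out. No paired analysis was possible because each group has 1 library and no test was made. The cause of these shifts was not tested. At the depth of G302V, differences below the counting interval of a gene were not detectable.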
